A study of Homo sapiens with 8 samples.

Results

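The genes described here are 43 factors of ribosome biogenesis and of the nucleolus, chosen by name from the 38010 gene IDs of a human RNA-seq count table. They fall into 7 groups by role: RNA polymerase I transcription (6 genes), the box C/D small nucleolar ribonucleoprotein (4), the box H/ACA small nucleolar ribonucleoprotein (4), abundant nucleolar shuttling proteins (4), the small-subunit processome (9), late 40S assembly (5) and 60S assembly (11). All 43 were found in the table and all 43 had enough counts to be tested. The rule names them by symbol and uses no measured value, but the list was drawn up with earlier results of these data known.

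Ribosomes are built in the nucleolus, where RNA polymerase I transcribes ribosomal DNA into a long precursor RNA. Small nucleolar ribonucleoproteins modify this precursor, box C/D particles by methylating riboses and box H/ACA particles by making pseudouridine, while large assemblies of proteins fold and cleave it into the 40S and 60S subunits. The process takes up much of a growing cell's energy, and its genes are widely known as targets of the transcription factor MYC.

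RNA was measured in Ea.hy926, an established human line made by fusing endothelial cells of the umbilical vein with the A549 lung carcinoma line. The untreated parental line (Eahy) was compared with Rho0, a derivative that is deficient in oxidative phosphorylation (OXPHOS). Rho0 is the usual name for cells that have lost their mitochondrial DNA. Each line gave 4 biological replicates, all collected at confluence, and libraries were made from polyadenylated RNA with a strand-specific kit. The labels do not say how the Rho0 line was derived. Since 1 parental and 1 Rho0 line were compared, p-values cover only how these cultures varied, and a difference of the lines cannot be told apart from a difference of respiration.

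Libraries held 11721708 to 37203507 estimated counts, so that 1 count was worth 0.0225 to 0.0754 CPM, the count normalised to the scaled library size. Genes encoded by mitochondrial DNA took 16.05% to 21.4% of the counts of the parental libraries. In Rho0 they took 0.149% of replicate 2, the library with the fewest counts, and 0.00296% to 0.00756% of replicates 1, 3 and 4. Library sizes were therefore scaled by TMM, a trimmed mean over genes, with factors of 0.801 to 0.921 for parental and 1.11 to 1.19 for Rho0 libraries. The summed level of 8 endothelial markers was 4475 to 4771 CPM in parental and 4722 to 5028 CPM in Rho0 libraries, but its members moved in opposite directions: 4 rose, among them KDR (9.43-fold) and PECAM1 (1.95-fold), and 2 fell, CDH5 (1.66-fold) and EGFL7 (1.51-fold), by edgeR. The summed level of 6 epithelial markers was 2607 to 2880 CPM in parental and 1295 to 2079 CPM in Rho0 libraries. By edgeR KRT8 (2.31-fold) and KRT18 (1.85-fold) fell, KRT7 and CDH1 were not called and KRT19 was not tested. EPCAM rose, from a mean of 0.43 CPM in parental to 0.95 CPM in Rho0 libraries. The 6 fibroblast markers together stayed at or below 1.84 CPM and 6 blood cell markers at or below 1.67 CPM, with CD3E and HBB at 0 in every library. Rho0 replicate 4 stood apart from the other Rho0 libraries in a way that moved with the GC content of transcripts. Rho0 replicate 1 often lay at the opposite end of the Rho0 spread. Both are described near the end, where the counts of calls are given again without each of them. In bulk RNA, fewer cells with a transcript and less of it per cell cannot be told apart.

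Of the 43 genes, 5 were higher in Rho0 and 16 were lower at an adjusted p of 0.05 (edgeR's quasi-likelihood test, Benjamini-Hochberg adjusted over all 15184 genes tested), and 22 were not called. The share called higher was 11.6%, against 29.0% of all genes tested. The share called lower was 37.2%, against 25.4% of all genes tested. Calls in either direction were common in this comparison, at 54.4% of all genes. The genes that rose were NPM1, UTP15, WDR12, POLR1E and UBTF. Those that fell were BOP1, SNU13, UTP4, DKC1, NOP2, GAR1, NOP10, NOC2L, BYSL, UTP18, RRP9, NOLC1, NOC4L, NOP14, NOP56 and POLR1C.

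The changes were small. None of the 43 genes was called with a log2 fold change of 1 or more in size, as 14.3% of all genes tested were. RRN3 alone reached that size by edgeR (1.03, unadjusted p = 0.0484) and no gene did in the DESeq2 Wald test, where RRN3 was at 0.96, whereas with library size alone RRN3 (1.43), UTP15 (1.18) and NPM1 (1.04) were called with at least that size. The median size among the 21 genes called was 0.44, against 0.64 for all called genes. The median log2 fold change of the 43 was -0.11, against 0.05 over all genes tested. In 21 of the 43 genes the 4 parental and the 4 Rho0 libraries did not overlap, 5 with Rho0 higher and 16 with Rho0 lower, where 50.9% of all genes tested did not overlap, 26.6% higher and 24.3% lower. The log2 fold change was below 0 in 26 of the 43, against 46.5% of all genes tested. Replicates varied more in Rho0 than in the parental line. The median coefficient of variation of the 43 genes was 4.83% in the parental line and 11.2% in Rho0. Over all genes tested it was 8.07% and 14.0%.

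**Figure D1:**
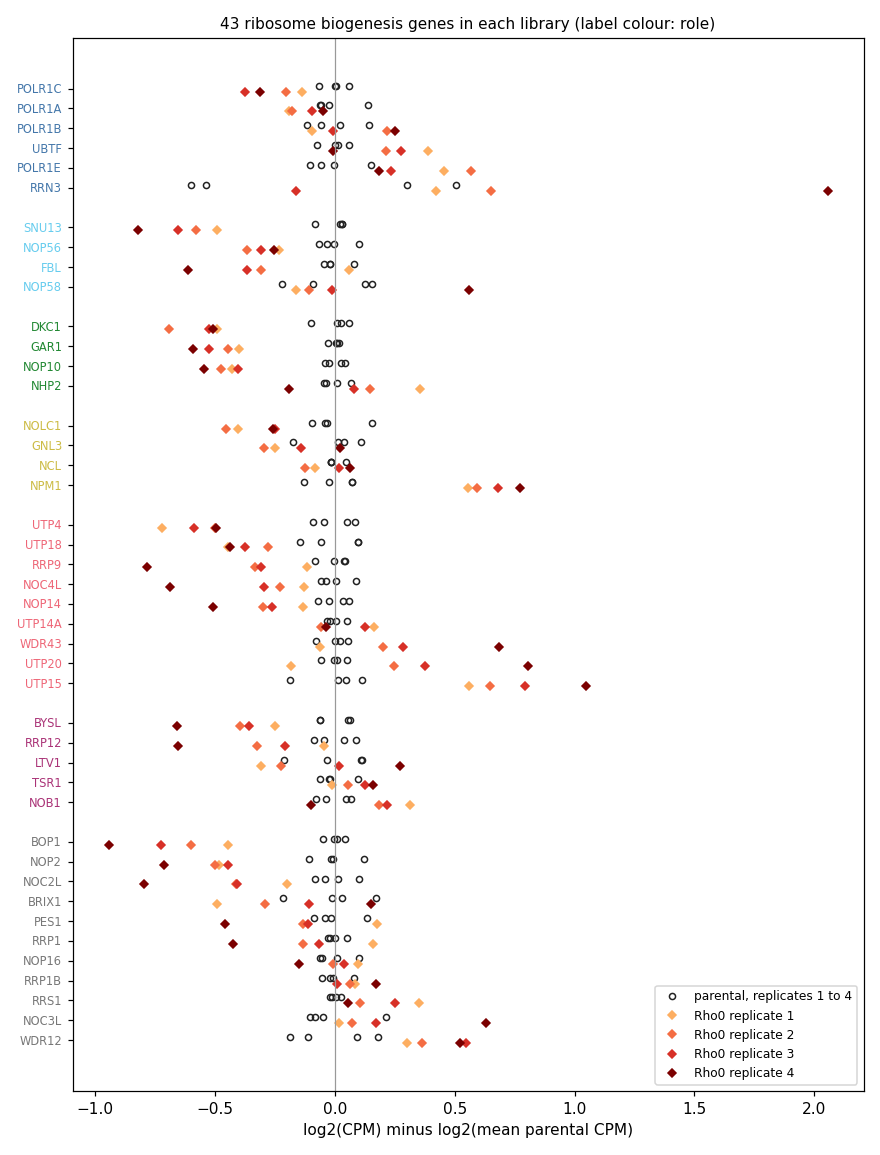
Level of each of the 43 genes in each library, as log2(CPM) minus log2 of the mean parental CPM, with genes in rows by role, open circles for the 4 parental libraries and diamonds shaded from light to dark for Rho0 replicates 1 to 4. In 21 rows all diamonds lie on one side of all circles. The darkest diamond (Rho0 replicate 4) and the lightest (Rho0 replicate 1) are each the lowest Rho0 library or the highest in most rows.

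Directions depended on how the libraries were scaled. With library size alone, which keeps the mitochondrially encoded counts in the total, the median over all genes went from 0.05 to 0.44 on the log2 scale, and 66.7% of all genes were called, 56.5% higher and 10.1% lower. Under that scaling 22 of the 43 genes were called higher and 2, BOP1 and SNU13, lower, and their median was 0.28. Relative to the median of all genes, the median of the 43 was -0.17 under either scaling. The 16 genes that fell lay below the median of all genes under both scalings, and the 5 that rose lay above it. With library size taken over genes that are not mitochondrially encoded, 9 were called higher and 13 lower, where 55.4% of all genes were called, 34.6% higher and 20.8% lower. That alternative was chosen after seeing the data. The DESeq2 Wald test called 3 higher and 18 lower, where it called 53.5% of all genes, 26.6% higher and 27.0% lower.

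**Figure D2:**
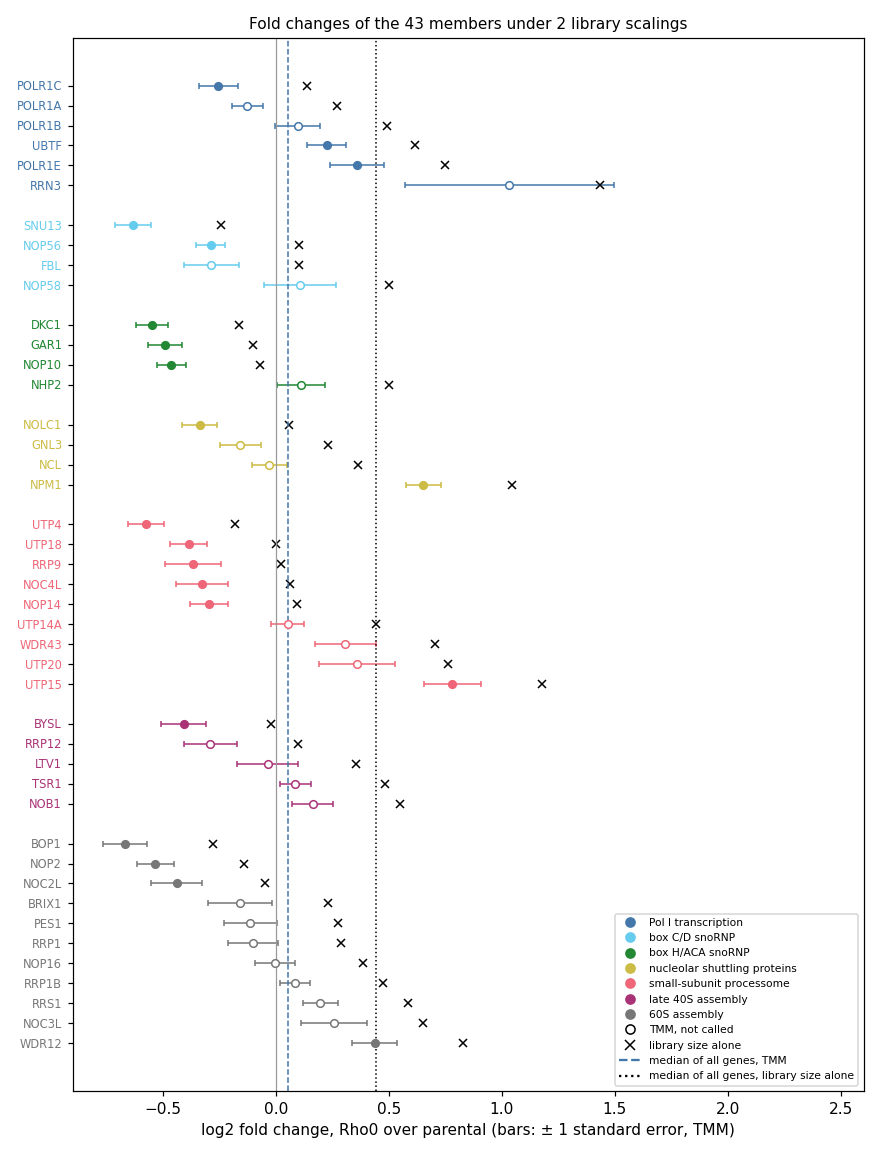
Log2 fold change of Rho0 over parental for each gene, by role, with TMM factors (circles with 1 standard error, filled where called) and with library size alone (crosses). Every cross lies to the right of its circle, by about the distance between the dashed and the dotted line, which are the medians of all genes under the 2 scalings (0.05 and 0.44).

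**Figure D3:**
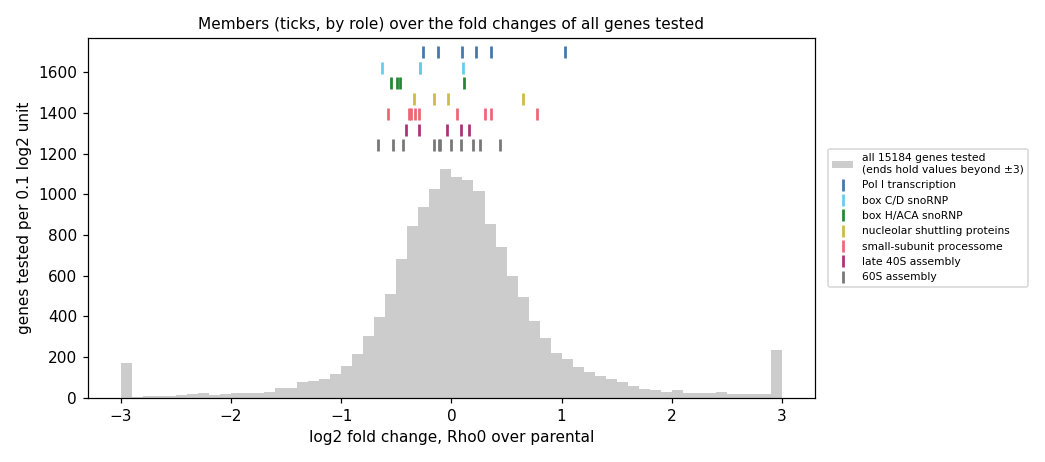
Log2 fold changes of the 43 genes as ticks in 7 rows by role, over a histogram of all 15184 genes tested with bins of 0.1, where the end bins also hold values beyond 3 in size. The ticks lie between -0.67 and 1.03, in the central part of the histogram.

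Calls that a single library could end were those of UBTF, POLR1E, POLR1C, NOC4L and RRP9. UBTF was not called without any 1 of the parental libraries or of Rho0 replicates 1 to 3, with log2 fold changes of 0.14 (without Rho0 replicate 1) to 0.24 (without parental replicate 3). POLR1E was lost without parental replicate 1 (0.34), 3 (0.35) or 4 (0.32) or Rho0 replicate 1 (0.29) or 2 (0.28). These are the Rho0-higher calls of the polymerase I group, and both were also lost under the DESeq2 Wald test. UBTF was not called either with DESeq2 size factors (0.19), with TMM on totals without mitochondrially encoded genes (0.21) or without a filter on low counts (0.24). In all, UBTF kept its call in 6 of 18 alternatives and POLR1E in 11. The call of POLR1C was lost without parental replicate 2 (-0.26), 3 (-0.26) or 4 (-0.24) or Rho0 replicate 3 (-0.23). NOC4L was lost without any 1 of the parental libraries or without Rho0 replicate 3, at -0.30 to -0.35. RRP9 was lost without parental replicate 1, 2 or 3 or Rho0 replicate 2 or 3, at -0.36 to -0.40. The other 16 of the 21 calls were kept when any 1 library was left out.

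What these genes share upstream was read from 250 bases before their RefSeq start sites (GRCh38.p14), a window given for 35 of the 43. These 35 genes have 41 windows, 6 of them more than 1, and a gene was counted once if any of its windows held the motif. BOP1, NOLC1, NOP58, POLR1E, RRP12, RRP1B, RRS1 and SNU13 had none. The motifs searched on both strands were the E-box CACGTG, which MYC and related factors bind, the ETS-type motif CCGGAAG and the NRF1-type motif GCGCATGCGC, no one of which contains another. The ETS-type motif was found for 15 of 35 genes (42.9%), against 18.2% of 10707 protein-coding genes tested and 10.2% of all 27305 genes with a window. The E-box was found for 5 of 35 (14.3%), against 11.1% and 7.7%, and the NRF1-type motif for 3 of 35 (8.6%), against 2.3% and 1.3%. The windows' median GC content was 64.8%, close to the 64.4% of the protein-coding genes tested. These shares describe letters in a window, not sites that a factor was shown to bind.

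By call, the ETS-type motif was in 7 of the 13 genes with a window that fell, in 0 of the 4 that rose and in 8 of the 18 that were not called. The 7 are GAR1, NOC2L, NOP10, POLR1C, RRP9, UTP18 and UTP4. The E-box was in NOP10, UTP18 and UTP4, which fell, and in UTP14A and UTP20, which were not called. The NRF1-type motif was in DKC1 and UTP18, which fell, and in NOB1, which was not called. For each of these 7 genes the match nearest the start is shown, with CCGGAAG in capitals and 30 bases on the strand that carries it. The ETS-type motif was chosen because it was the most frequent of the 3 motifs. The match shown lay 17 (NOC2L) to 231 (RRP9) bases before the start. In POLR1C a further match on the other strand overlaps the one shown, as matches on both strands overlap in NOP16. Matches not shown also lie at position -212 from the start in POLR1C and at -177 in UTP18.
GAR1: cagcacgacgtcCCGGAAGtgctgcggcaa
NOC2L: gcattctggggCCGGAAGtggggtgcacgc
NOP10: cttcctgcataaCCGGAAGtctctctctcc
POLR1C: aaaagcaacttCCGGAAGctggggacgtgg
RRP9: acagcatcaggCCGGAAGcgccgtggagat
UTP18: aagccccgggggCCGGAAGgagcctgcgca
UTP4: tcaggctctgccCCGGAAGtgctcctggcg
Their positions in GRCh38.p14 are chr4:109815471-109815500 (minus strand) for GAR1, chr1:959255-959284 (minus) for NOC2L, chr15:34343160-34343189 (plus) for NOP10, chr6:43516954-43516983 (plus) for POLR1C, chr3:51942117-51942146 (minus) for RRP9, chr17:51260472-51260501 (minus) for UTP18 and chr16:69132592-69132621 (minus) for UTP4.

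Among the 6 genes of RNA polymerase I transcription, 2 rose (UBTF and POLR1E), 1 fell (POLR1C) and 3 were not called, and the median change was 0.16 (log2). With library size alone POLR1C and POLR1A turned positive (0.13 and 0.27), as 17 of the 43 genes did. UBTF, which binds ribosomal DNA and opens it for the polymerase (chr17:44205033-44221626, GENCODE 29 on GRCh38, as for all genes below), was at 162.5, 164, 169 and 154 CPM in parental replicates 1 to 4 and at 212, 188, 197 and 162 CPM in Rho0 replicates 1 to 4. Rho0 replicate 4 lay within the parental range and the other 3 above it, with a log2 fold change of 0.22 (SE 0.09, adjusted p = 0.0458). POLR1E (chr9:37485935-37503697), a subunit specific to polymerase I, was at 5.92, 6.84, 6.14 and 5.72 CPM in the parental line and 8.45, 9.12, 7.25 and 6.99 CPM in Rho0. All Rho0 libraries were above all parental ones, replicate 4 by the least, and the log2 fold change was 0.36 (SE 0.12, adjusted p = 0.0244). POLR1C (chr6:43509702-43562419), a subunit shared with polymerase III, was at 11.6, 12.1, 12.2 and 12.65 CPM in the parental line and 11.03, 10.55, 9.35 and 9.78 CPM in Rho0. The groups did not overlap, and the log2 fold change was -0.26 (SE 0.09, adjusted p = 0.0296).

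The 2 largest subunits were not called. POLR1A (chr2:86020216-86106155), which holds most of the catalytic centre, was at 153, 149, 171 and 149 CPM in the parental line and 136, 137, 146 and 150.35 CPM in Rho0, with a log2 fold change of -0.13 (SE 0.07, adjusted p = 0.155). Only Rho0 replicate 4 reached the parental range. POLR1B (chr2:112541915-112577150), its partner, was at 20.9, 22.9, 21.7 and 24.97 CPM in the parental line and 21.2, 26.3, 22.5 and 26.9 CPM in Rho0, with groups that overlapped and a log2 fold change of 0.10 (SE 0.10, adjusted p = 0.437).

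RRN3 (chr16:15060022-15094317), the factor that brings polymerase I to its promoter, could not be measured with certainty. It held 134 counts over the 4 parental libraries and 407 over the 4 Rho0 libraries, while its 4 named pseudogenes held 93.3% and 88.9% of the counts assigned to RRN3 and these copies together. Its level was 2.11, 1.83, 0.980 and 1.02 CPM in the parental line and 1.99, 2.34, 1.33 and 6.18 CPM in Rho0. The high Rho0 value came from replicate 4 alone, while replicates 1 and 3 lay within the parental range and replicate 2 just above it. RRN3 was not called (log2 fold change 1.03, SE 0.46, adjusted p = 0.0818), its log2 fold change was 0.30 without Rho0 replicate 4, and it was called without Rho0 replicate 3 (1.24). The pseudogene RRN3P1 was at 6.75 to 7.62 CPM in the parental line and 10.7 to 13.6 CPM in Rho0 (log2 fold change 0.81, SE 0.10, adjusted p = 5.7e-05). How the authors' counting divided reads between RRN3 and its copies was not tested. Across the list 10 of the 43 genes have named pseudogenes.

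The box H/ACA particle showed the lowest median of the 7 roles, at -0.48, with 3 of its 4 proteins lower and 1 not called. With library size alone none of the 3 was called lower, though each stayed below 0 (DKC1 -0.16, GAR1 -0.10 and NOP10 -0.073). DKC1 (dyskerin, chrX:154762742-154777689), the pseudouridine synthase of the particle and a part of telomerase, was at 107, 108, 99.0 and 111 CPM in parental replicates 1 to 4 and at 75.5, 65.6, 73.7 and 74.7 CPM in Rho0. No Rho0 library came near the parental range, and DKC1 was 1.46-fold lower (log2 fold change -0.55, SE 0.07, adjusted p = 7.8e-05). GAR1 (chr4:109815510-109824740), which binds dyskerin, was at 20.2, 20.7, 20.9 and 20.8 CPM in the parental line and 15.7, 15.1, 14.4 and 13.7 CPM in Rho0. Its parental libraries were almost equal and all Rho0 libraries lower, with a log2 fold change of -0.49 (SE 0.08, adjusted p = 0.00029). NOP10, a small protein that links dyskerin and NHP2, ranged from 62.4 to 66.1 CPM in the parental line and from 43.9 to 48.5 CPM in Rho0, with a log2 fold change of -0.46 (SE 0.06, adjusted p = 0.00013).

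NHP2, the remaining core protein of the particle, was not called. It ranged from 36.7 to 39.6 CPM in the parental line and from 33.1 to 48.4 CPM in Rho0 (log2 fold change 0.11, SE 0.11, adjusted p = 0.407). Rho0 replicate 4 held the lowest value and Rho0 replicate 1 the highest, so the spread in Rho0 enclosed the parental libraries. Without Rho0 replicate 4 the log2 fold change of NHP2 was 0.20, and without Rho0 replicate 1 it was -0.013.

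In the box C/D particle 2 of 4 proteins fell and 2 were not called, with a median of -0.29. SNU13 (chr22:41673930-41690504), which binds the folded RNA first and is also a protein of the spliceosome, was at 74.4, 80.6, 80.6 and 80.1 CPM in the parental line and 56.2, 52.8, 50.1 and 44.7 CPM in Rho0. All Rho0 libraries lay well below the parental ones, and SNU13 was 1.55-fold lower (log2 fold change -0.63, SE 0.08, adjusted p = 7.4e-05), lower also with library size alone (-0.24). NOP56 (chr20:2652145-2658393), a scaffold of the particle, was at 189, 193, 185 and 207 CPM in the parental line and 164, 149.9, 156 and 162 CPM in Rho0. The groups did not overlap and the log2 fold change was -0.29 (SE 0.07, adjusted p = 0.0035), but with library size alone it was 0.10.

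NOP58 and fibrillarin, the other C/D proteins, varied more in Rho0. FBL (fibrillarin, chr19:39834458-39846414), the methyltransferase, was at 92.8, 94.4, 101 and 94.5 CPM in the parental line and 99.6, 77.2, 74.2 and 62.6 CPM in Rho0. Rho0 replicate 1 lay within the parental range and the other 3 below it, so that FBL was not called (log2 fold change -0.29, SE 0.12, adjusted p = 0.0679) but was called without Rho0 replicate 1 (-0.45). NOP58 (chr2:202265716-202303666), which pairs with NOP56, was at 29.5, 34.2, 26.9 and 35.0 CPM in the parental line and 28.0, 29.2, 31.1 and 46.3 CPM in Rho0. Its log2 fold change of 0.11 (SE 0.16, adjusted p = 0.597) came from Rho0 replicate 4, without which it was -0.10.

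**Figure D4:**
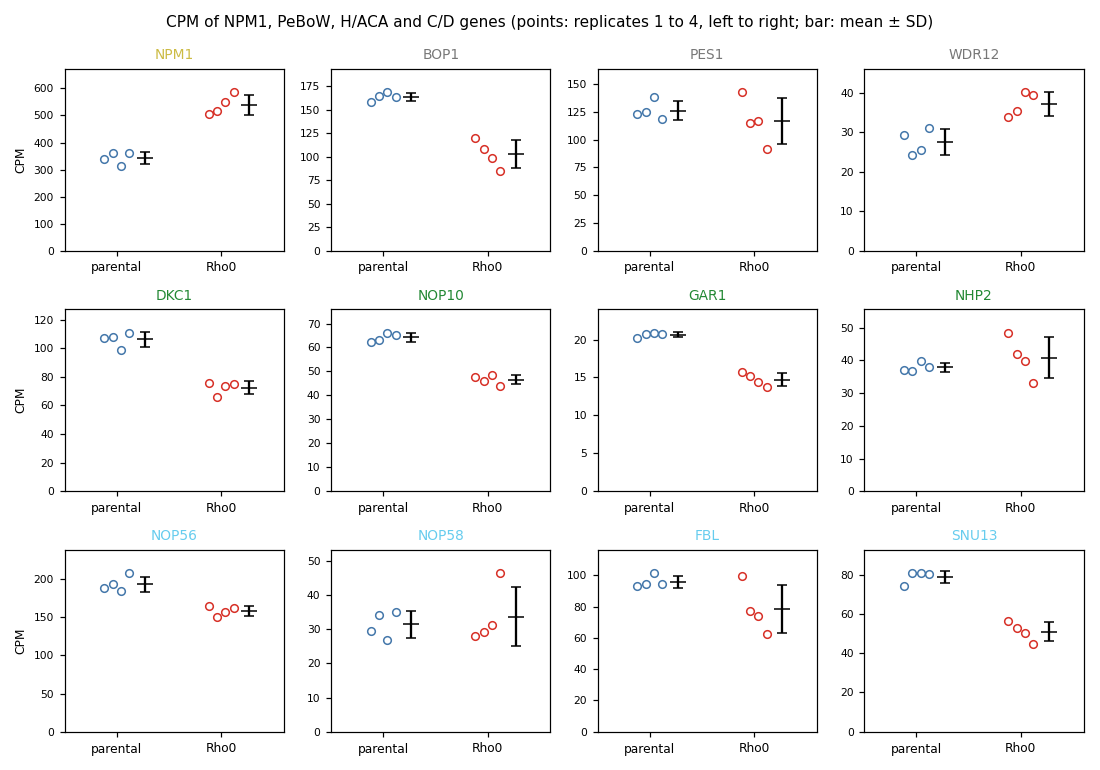
CPM of NPM1, of the PeBoW genes BOP1, PES1 and WDR12, and of the 4 box H/ACA and the 4 box C/D genes, with 1 point per library (replicates 1 to 4 from left to right) and bars for the mean and SD of 4 libraries. The axes start at 0 and differ between panels. NPM1 and WDR12 are higher in all 4 Rho0 libraries, BOP1, DKC1, NOP10, GAR1, NOP56 and SNU13 are lower in all 4, and PES1, NHP2, NOP58 and FBL overlap.

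Of the 4 abundant nucleolar proteins 1 rose, 1 fell and 2 were not called. NPM1 (nucleophosmin, chr5:171387116-171411137), a chaperone that forms the outer region of the nucleolus, was at 337, 361, 314 and 361 CPM in parental replicates 1 to 4 and at 505, 517, 550.25 and 586 CPM in Rho0. Every Rho0 library was above every parental one, from a mean of 343 ± 22.6 CPM (SD, n = 4) to 540 ± 36.0 CPM (SD, n = 4), 1.57-fold higher (log2 fold change 0.65, SE 0.08, adjusted p = 4.6e-05 by edgeR). NPM1 kept this call in all 18 alternatives, and its 49 named pseudogenes held 0.488% and 0.409% of the counts assigned to it and to them in the 2 lines. NCL (nucleolin, chr2:231453531-231483641), which binds nascent precursor RNA, was at 701, 702, 702 and 732 CPM in the parental line and 669, 651, 718 and 741 CPM in Rho0. Nucleolin was thus on both sides of the parental range in Rho0 and was not called (log2 fold change -0.03, SE 0.08, adjusted p = 0.769; 0.36 with library size alone).

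NOLC1 (chr10:102152176-102163871), a chaperone of both kinds of small nucleolar particle, was at 126, 120.5, 143 and 125 CPM in the parental line and 97.3, 93.9, 108 and 108 CPM in Rho0. The groups did not overlap, with a log2 fold change of -0.34 (SE 0.08, adjusted p = 0.0043), which was 0.059 with library size alone. GNL3 (nucleostemin), a GTPase that shuttles between nucleolus and nucleoplasm, had a log2 fold change of -0.16 (SE 0.09, adjusted p = 0.162) and was called lower without Rho0 replicate 4 (-0.23).

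The small-subunit processome assembles on the nascent precursor and releases the early 40S particle. Of its 9 genes, 5 fell, 1 rose and 3 were not called, with a median of -0.30. With library size alone none of the 5 was called lower, and UTP18, RRP9, NOC4L and NOP14 lay between 0.0012 and 0.094. UTP4 (chr16:69131291-69231130), of the subcomplex that joins the precursor first, was at 37.04, 37.9, 34.7 and 33.6 CPM in the parental line and 21.7, 25.3, 23.8 and 25.4 CPM in Rho0. It was 1.49-fold lower with no overlap (log2 fold change -0.58, SE 0.08, adjusted p = 0.00013; -0.18 with library size alone). UTP15 (chr5:73565443-73583377), of the same subcomplex, was at 7.34, 6.84, 7.01 and 5.95 CPM in the parental line and 9.99, 10.6, 11.75 and 14.0 CPM in Rho0. It went the opposite way to UTP4, 1.72-fold higher with no overlap (log2 fold change 0.78, SE 0.13, adjusted p = 0.00042), a call kept in all 18 alternatives and at 0.66 without Rho0 replicate 4, its highest library.

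WDR43, also of that subcomplex, was not called (log2 fold change 0.31, SE 0.14, adjusted p = 0.0778). Rho0 replicate 1 lay within its parental range and Rho0 replicate 4 far above, so that WDR43 was called without the first (0.39) and fell back to 0.14 without the second. UTP18 (chr17:51260528-51297936), of a neighbouring subcomplex, was at 31.7, 35.2, 29.7 and 35.2 CPM in the parental line and 24.2, 27.1, 25.4 and 24.3 CPM in Rho0. The groups were separate, with a log2 fold change of -0.39 (SE 0.08, adjusted p = 0.0022).

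The other processome genes were RRP9, a protein of the U3 particle (log2 fold change -0.37, SE 0.13, adjusted p = 0.0286), NOC4L (-0.33, SE 0.12, adjusted p = 0.0332) and NOP14 (-0.30, SE 0.08, adjusted p = 0.012), which form a heterodimer, and UTP20 and UTP14A. UTP20, a large helical-repeat protein, was not called (0.36, SE 0.17, adjusted p = 0.0942). It ranged from 31.0 to 33.4 CPM in the parental line and from 28.4 to 56.4 CPM in Rho0, with replicate 1 lowest and replicate 4 highest. Its log2 fold change was 0.48, and called, without Rho0 replicate 1 and 0.15 without Rho0 replicate 4. UTP14A, which activates an RNA helicase of the processome, had a log2 fold change of 0.05 (SE 0.07, adjusted p = 0.572).

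Of 5 genes of late 40S assembly 1 fell and 4 were not called, with a median of -0.04. BYSL (bystin, chr6:41921188-41933046), which binds the 40S precursor, was at 15.9, 14.6, 14.6 and 15.9 CPM in the parental line and 12.9, 11.6, 11.9 and 9.67 CPM in Rho0. It was lower in every Rho0 library, with a log2 fold change of -0.41 (SE 0.10, adjusted p = 0.0059; -0.023 with library size alone). RRP12, a factor for export, had a log2 fold change of -0.29 (SE 0.12, adjusted p = 0.0546) and was called without Rho0 replicate 1 (-0.41). NOB1, the nuclease that makes the final end of the small-subunit RNA, had 0.16 (SE 0.09, adjusted p = 0.157) and was called higher without Rho0 replicate 4 (0.24). TSR1 and LTV1, which keep the immature subunit from translating, had 0.08 (SE 0.07, adjusted p = 0.322) and -0.04 (SE 0.13, adjusted p = 0.84).

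In 60S assembly 3 of 11 genes fell, 1 rose and 7 were not called, with a median of -0.10. BOP1, PES1 and WDR12 form the PeBoW complex, which is needed to mature the large-subunit RNA, and the 3 did not move together. BOP1 (chr8:144262102-144291370) was at 158, 164, 168 and 163 CPM in the parental line and 119.95, 108, 98.9 and 85.0 CPM in Rho0. It was 1.59-fold lower with no overlap (log2 fold change -0.67, SE 0.10, adjusted p = 0.0002), the largest fall of the 43, and was lower also with library size alone (-0.28) and without Rho0 replicate 4 (-0.59). WDR12 (chr2:202874782-203014798) was at 29.3, 24.1, 25.4 and 31.2 CPM in the parental line and 33.8, 35.3, 40.1 and 39.5 CPM in Rho0. It was higher in every Rho0 library, with a log2 fold change of 0.44 (SE 0.10, adjusted p = 0.0036), and kept this call in all 18 alternatives.

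PES1 (chr22:30576625-30607083), the third PeBoW protein, was at 123, 125, 138 and 119 CPM in the parental line and 143, 115, 117 and 91.8 CPM in Rho0. Rho0 replicate 1 was above all parental libraries and the other 3 below them, and PES1 was not called (log2 fold change -0.11, SE 0.12, adjusted p = 0.44; called at -0.25 without Rho0 replicate 1). NOP2 (chr12:6556863-6568691), a methyltransferase that modifies a cytosine of the large-subunit RNA, was at 69.1, 74.0, 81.0 and 73.5 CPM in the parental line and 53.3, 52.5, 54.6 and 45.3 CPM in Rho0. It fell without overlap (log2 fold change -0.53, SE 0.08, adjusted p = 0.00027; -0.14 and not called with library size alone). NOC2L, which pairs with NOC3L on the early 60S particle and is also known as an inhibitor of histone acetyltransferases, fell as well (-0.44, SE 0.11, adjusted p = 0.007; -0.051 with library size alone).

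The remaining 60S genes were not called. NOC3L had a log2 fold change of 0.26 (SE 0.15, adjusted p = 0.166) and RRS1, which helps to dock the particle that holds the smallest ribosomal RNA, 0.20 (SE 0.08, adjusted p = 0.0529). RRS1 was higher in every Rho0 library than in any parental one, the one gene of the 43 with separate groups and no call, and was called without Rho0 replicate 4 (0.24). BRIX1, an RNA-binding factor of the early 60S particle, had -0.16 (SE 0.14, adjusted p = 0.368) and was called lower without Rho0 replicate 4 (-0.31). The paralogs RRP1 and RRP1B had -0.10 (SE 0.11, adjusted p = 0.461) and 0.08 (SE 0.07, adjusted p = 0.309), and NOP16 was near 0 (-0.0046, SE 0.09, adjusted p = 0.971).

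Together the 43 genes took 0.308% ± 0.018 (SD, n = 4) of all counts in the parental line and 0.391% ± 0.014 (SD, n = 4) in Rho0. Counted without mitochondrially encoded genes, the shares were 0.378% ± 0.012 and 0.391% ± 0.0137 (SD, n = 4 each), a difference of 0.0135 percentage points in place of 0.083. Without NPM1 and NCL the share of all counts was 0.216% ± 0.0101 in the parental line and 0.249% ± 0.00612 in Rho0 (SD, n = 4 each). Leaving out NPM1, NCL and the mitochondrially encoded counts together turned the direction, to 0.265% ± 0.00533 and 0.250% ± 0.00602 (SD, n = 4 each), an alternative chosen after seeing the data. These shares are a description and were not tested.

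Other genes of the pathway, 126 in 5 lists for polymerase I, snoRNP assembly, the RNA exosome, 40S assembly and 60S assembly, were counted in the same fit. Of 125 tested, 27 rose and 35 fell (median -0.022), which is 21.6% and 28.0% against 29.0% and 25.4% of all genes tested. With library size alone 70 rose and 10 fell, 56.0% and 8.0%, close to the 56.5% and 10.1% of all genes. The RNA exosome, which trims and degrades precursor RNA, had 7 of 14 genes lower and 1 higher, led by EXOSC7 (13.9 ± 1.12 CPM against 7.71 ± 0.326 CPM, SD, n = 4 each; log2 fold change -0.85, adjusted p = 2.2e-05 by edgeR) and EXOSC2 (-0.76). Its higher gene was MTREX, the helicase that feeds the exosome (0.50, adjusted p = 0.0276), which was at 0.28 without Rho0 replicate 4 and was not called when parental replicate 1 (0.50), 3 (0.45) or 4 (0.48) or Rho0 replicate 3 (0.48) was left out. Other snoRNP assembly factors showed 3 of 9 lower, among them NAF1 (-0.60), which holds the place of GAR1 in immature H/ACA particles, and RUVBL2 (-0.44), whose call was lost without parental replicate 3 (-0.39) or Rho0 replicate 3 (-0.44). With library size alone both lists turned. The exosome then had 4 genes higher and 2 lower (median 0.091), and the 9 snoRNP assembly factors had 4 higher and 0 lower (median 0.22).

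Other 40S factors were divided, with 12 of 44 higher, led by ESF1 (0.90) and KRR1 (0.80), and 13 lower, led by TSR2 (-0.90), which escorts a small-subunit protein, and DDX47 (-0.81), an RNA helicase. Other 60S factors were 13 of 50 higher and 10 lower. NSA2, a 60S assembly factor, rose from 17.8 ± 1.007 CPM in the parental line to 44.96 ± 7.66 CPM in Rho0 (SD, n = 4 each, log2 fold change 1.34, adjusted p = 4.9e-06 by edgeR), followed by RSL24D1 (0.91). The helicase DDX56 fell from 79.0 ± 6.70 CPM in parental to 39.1 ± 5.67 CPM in Rho0 libraries (SD, n = 4 each, log2 fold change -1.02, adjusted p = 2.5e-05 by edgeR), followed by WDR18 (-0.66). Of 8 other polymerase I factors tested, 1 rose, the terminator TTF1 (0.48, lost without parental replicate 1, at 0.44, or 3, at 0.42), and 2 fell, among them TAF1C (-0.35; 0.039 with library size alone).

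MYC, the transcription factor named above, was at 87.5, 90.7, 97.0 and 90.6 CPM in the parental line and 117, 113, 123 and 111 CPM in Rho0. It rose without overlap (log2 fold change 0.34, SE 0.06, adjusted p = 0.0011 by edgeR). In its list of 10 MYC-network and p53 genes, 8 were tested and 6 rose, led by MDM2 (1.35), the ligase that degrades p53, and MXI1 (0.94), a MYC antagonist. Proliferation genes went the other way: 14 of 15 fell, with a summed level of 1914 to 2055 CPM in the parental line and 980 to 1192 CPM in Rho0. MCM7 (-1.57) and MCM2 (-1.34), of the replicative helicase, fell the most, and the marker MKI67 fell from 258 ± 19.5 CPM in parental to 135 ± 49.98 CPM in Rho0 libraries (SD, n = 4 each, log2 fold change -0.94, adjusted p = 0.0035 by edgeR). Their part in the changes of the 43 genes was not tested.

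Rho0 replicate 4 differed from the other Rho0 libraries along the GC content of transcripts. Of the 15 genes of the list with a median transcript GC content of 55% or more, 15 were lower in replicate 4 than the mean of Rho0 replicates 1 to 3, by a median of 0.38 on the log2 scale. Of the 12 with 45% or less, 11 were higher in replicate 4, by a median of 0.44. The same held over all genes tested, of which 82.1% of 4787 in the first class were lower and 89.1% of 4336 in the second were higher. Across the 43 genes, which share the libraries, GC content and this difference had a Pearson r of -0.76 and a Spearman rho of -0.89, and across 14230 genes with a known GC content r was -0.57 and rho -0.66. Replicate 4 was the highest of the 4 Rho0 libraries for 16 of the 43 genes and the lowest for 20, against 38.5% and 36.3% of all genes tested. It was not the only library at the ends of the Rho0 spread. Replicate 1 was the highest for 21 of the 43 and the lowest for 14, for which shares over all genes were not counted. It often lay opposite to replicate 4, as in PES1 (GC content 57.5%, 143 against 91.8 CPM) and UTP20 (41.1%, 28.4 against 56.4 CPM). How replicate 1 moved with GC content was not measured, and leaving out replicate 4 does not remove a difference of replicate 1. Without Rho0 replicate 1, 5 of the 43 were called higher and 19 lower, where 4591 and 4391 of 15401 genes were.

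**Figure D5:**
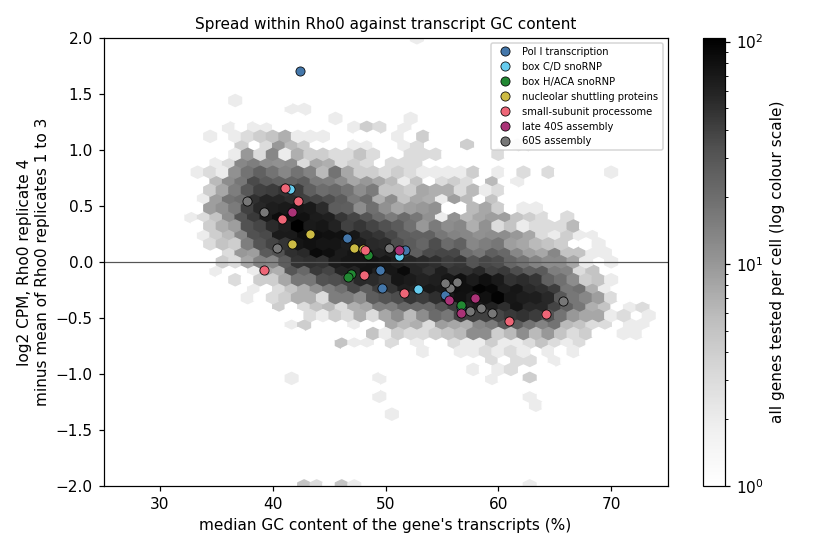
Log2 CPM in Rho0 replicate 4 minus the mean of Rho0 replicates 1 to 3, against the median GC content of each gene's transcripts, for all genes tested (grey cells, darker where more genes lie) and for the 43 genes (points coloured by role). Points at 55% GC or more all lie below 0, and RRN3 is the point at 1.71.

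The calls did not rest on Rho0 replicate 4. Without Rho0 replicate 4 all 21 calls were kept and 7 genes were called higher and 18 lower, where 56.2% of all genes were called, 28.8% higher and 27.4% lower, as NOB1 and RRS1 joined the first and GNL3 and BRIX1 the second. By role that raised the counts to 2 higher and 4 lower in 60S assembly, 1 and 1 in late 40S assembly and 1 and 2 among the abundant nucleolar proteins, and the counts of the other 4 roles were as before. The groups did not overlap in 8 genes with Rho0 higher and 17 with Rho0 lower, against 29.9% and 27.4% of all genes. In that fit 26 of the 43 were below 0, for which the share over all genes was not counted. Below the median of all genes, which was then 0.014, lay 26 of the 43. Among other genes of the pathway 24 rose and 39 fell, with 10 and 14 of the 40S factors and 12 and 13 of the 60S factors, while the exosome had 1 higher and 7 lower. The largest changes were then 0.60 for NPM1, 0.66 for UTP15, -0.59 for BOP1, -0.58 for SNU13 and -0.62 for UTP4. GC content and the log2 fold change of Rho0 over parental had an r of -0.47 across the 43 genes with all libraries. Without Rho0 replicate 4 it was -0.27. Across 14230 genes tested the same r was -0.089 with all libraries and -0.03 without Rho0 replicate 4. With libraries corrected for the length and GC content of transcripts, 7 were called higher and 22 lower, where 60.9% of all genes were called, 27.6% higher and 33.3% lower, and UBTF (0.15) and POLR1E (0.25) lost their calls.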

How the data were processed

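The authors deposited estimated counts for 38010 gene IDs in 8 libraries, 4 per line, and a second table of log2 values for 12885 genes, per the file headers and values. Tools named in the submitters' processing notes are kallisto, edgeR and limma, with build GRCh38, with neither version nor role. The annotation release, the strand setting of the counting and the scaling of the log2 table are not given in the sources used here. Per the labels' protocols, 2 ng of total RNA went into each strand-specific library of polyadenylated RNA. No column belonged to a sample outside the 8.

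Estimated counts were rounded and fitted in edgeR 4.0.16 (R 4.3.3) over all genes with TMM scaling, filterByExpr (minimum count 10) and a quasi-likelihood F-test of the group term, with Benjamini-Hochberg adjustment over 15184 genes. The fit was also run on simulated counts in which few genes were changed, as many raised as lowered. With 54.4% of all genes called in the real comparison, that setting cannot test the choice of scaling. The biological coefficient of variation was 13.7%. A standard error is the log2 fold change divided by the square root of F. CPM values use the TMM-scaled library size.

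Symbols came from a gene table and GENCODE 29, which together named 34284 IDs, and gene coordinates from GENCODE 29. Promoter windows are RefSeq's. Median transcript length and GC content were known for 93.7% of genes tested and for all 43 members.

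The members, the role groups and the other gene lists were chosen with earlier results of these data known. Values in every library are given for 12 fixed members and, in each role, for the 2 called members with the largest rise and the 2 with the largest fall at 5 CPM or more in the higher line. In each other list the 2 largest called changes in each direction, by the same minimum, are named, with MYC and MKI67. Further genes (NOP10, NHP2, WDR43, UTP20, RRN3P1) were given with ranges after their values were seen.

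Alternatives were DESeq2 size factors, library size alone, totals without mitochondrially encoded genes, dropping the filter, requiring 50 counts in 4 libraries, a Wald test in DESeq2 1.42.0, limma-trend (limma 3.58.1) on the log2 table the authors deposited, a block for replicate number, an offset for length and GC content of transcripts, and leaving out each library. Library size over genes that are not mitochondrially encoded, and a share of counts without these genes, NPM1 and NCL, were added after seeing the data.

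Every pair of libraries of a line differed by more than sampling noise (chi-square of at least 3.99 per degree of freedom). The highest value was 91.6 in Rho0, between replicates 1 and 4, and 26.9 in the parental line, between replicates 3 and 4. Python 3.11.15 with pandas 2.3.3 and matplotlib 3.10.9 was used for tables and figures.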

Additional observations from a re-analysis of the deposited data

Results flagged for a closer look

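In 4 of 86 groups of 4 libraries (43 genes in 2 lines), 1 library lay far from the other 3 by Dixon's criterion at the 95% level. The groups share the same 8 libraries, so this count cannot be read against the 1 in 20 that chance gives for independent groups. NOP58 was at 46.32 CPM in Rho0 replicate 4 and at 28.03 to 31.13 CPM in the other Rho0 libraries. SNU13 was at 74.39 CPM in parental replicate 1 and at 80.08 to 80.58 CPM in the other parental libraries. NCL was at 731.8 CPM in parental replicate 4 and at 701.1 to 702.3 CPM in the other 3. NOC3L was at 10.14 CPM in parental replicate 4 and at 8.151 to 8.455 CPM in the other 3.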

How the results depend on the processing

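Of 773 comparisons of a gene of the list with an alternative, 652 kept direction and call, 43 gained a call, 45 lost it and 33 reversed. For named genes of the other lists the figures were 366 of 378 kept, 11 lost and 1 reversed. The 5 higher genes became 22 with library size alone, 3 with the DESeq2 Wald test, 9 with library size over genes that are not mitochondrially encoded, and 3 to 7 with 1 library left out. The 16 lower genes became 2 with library size alone and 13 to 19 with 1 library left out. Over all genes library size alone gave 8583 higher and 1540 lower. It gave 70 higher and 10 lower among other genes of the pathway, of which 55 were lower with the GC and length correction. The median of the 43 was -0.15 with DESeq2 size factors, the DESeq2 Wald test or the GC and length correction, 0.28 with library size alone, -0.16 to -0.088 with 1 library left out (-0.16 without Rho0 replicate 4) and -0.020 with library size over genes that are not mitochondrially encoded. The difference in the share of counts taken by the 43 genes, 0.083 percentage points, was 0.0135 without mitochondrially encoded genes, 0.0334 without NPM1 and NCL, and -0.0153 without either. Reversed with library size alone were POLR1A (0.27), POLR1C (0.13), NOP56 (0.10), FBL (0.10), NCL (0.36), NOLC1 (0.059), GNL3 (0.23), UTP18 (0.0012), NOP14 (0.094), NOC4L (0.062), RRP9 (0.021), RRP12 (0.10), LTV1 (0.36), PES1 (0.28), NOP16 (0.39), RRP1 (0.29), BRIX1 (0.23) and TAF1C (0.039), and over genes that are not mitochondrially encoded NCL (0.070), LTV1 (0.064) and NOP16 (0.092). The GC and length correction reversed NOP58 (-0.048), UTP14A (-0.094), NOP16 (0.057), NOC3L (-0.13) and RRP1B (-0.15). NOP16 also reversed with the stricter filter (0.022) and no filter (0.0090). With 1 library left out NOP16 ranged from -0.069 to 0.040, reversed without parental replicate 2 or Rho0 replicate 4. NOP58 ranged from -0.10 (without Rho0 replicate 4) to 0.16, NHP2 from -0.013 to 0.20, UTP14A from -0.013 to 0.077 and LTV1 from -0.18 to 0.023, the last 3 reversed without Rho0 replicate 1. Beyond the part of mitochondrially encoded counts in the totals, the causes were not tested. Over their alternatives the adjusted p of UBTF ranged from 3.3e-05 to 0.169, of POLR1E from 0.00026 to 0.0898, and of RRN3 from 0.0242 to 0.424. Same-numbered replicates did not pair: the correlations of their deviations were -0.135 to 0.155, 1 of 4 above 0.1. With a replicate block the list had 5 higher and 17 lower genes, POLR1C losing its call and FBL and RRP12 gaining one, and all genes 4215 higher and 3802 lower. RRN3 was not tested under the stricter filter. Depth limits RRN3, with 134 parental counts, the fewest of the 43.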
